A study of Mus musculus with 5 samples.

Results

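Enzymes that make, convert or inactivate steroids, 10 in all, were followed across the cells of the ovariectomized mouse mammary gland: Akr1c18, Akr1c14, Hsd11b1, Hsd17b4, Hsd17b10, Hsd17b11, Hsd17b12, Sts, Srd5a1 and Srd5a3. Of the 10 symbols, 9 were found among the 27998 genes counted, and Sts (steroid sulfatase) was not analysed here. The genes were chosen by symbol with their UMI counts in fibroblast subsets and epithelial cells already known, so their levels between cell types are given as a description, with no test.

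Single cells were profiled from whole number 4 mammary glands that had been digested with collagenase and DNase and were not sorted. All mice were BALB/cj, were ovariectomized, were treated 20 weeks later for 1 week and were 30 weeks old at collection. Each of the 5 groups is 1 library, so every difference between groups has no replicate check, and the number of mice behind a library is not given in the sources used here. OVX received the DMSO vehicle. OVX_E2 received estradiol (E2) at 1 µg per animal by daily intraperitoneal injection, and OVX_E2_P4 received the same dose of E2 with progesterone (P4) at 0.1 mg per animal. OVX_E2_PBDE and OVX_E2_P4_PBDE received the matching hormones and ate food with 3 polybrominated diphenyl ethers (PBDEs, flame retardants), BDE-47 at 7.1, BDE-100 at 0.4 and BDE-153 at 0.9 mg per kg of food. The other 3 groups ate nutrient-matched food with DMSO. The labels give no preparation date. The submitters' own library numbers place the 2 PBDE libraries side by side and away from the other 3, and if those numbers mark a batch, it and the PBDEs cannot be told apart.

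Steroid hormones act on a cell only in the form that reaches their receptor, and enzymes inside the cell set that form. The 20-alpha-hydroxysteroid dehydrogenase Akr1c18 turns progesterone into a metabolite that binds its receptor poorly, the 3-alpha-hydroxysteroid dehydrogenase Akr1c14 reduces 5-alpha-reduced progestins and androgens, and the 11-beta-hydroxysteroid dehydrogenase Hsd11b1 regenerates active glucocorticoid from its inert keto form. Several enzymes that carry a 17-beta-hydroxysteroid dehydrogenase name mainly handle fatty acids, and stromal cells of the mammary gland are known to metabolize steroids beside the epithelium.

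The promoters of the 2 enzymes whose levels set the fibroblast subsets apart are shown because their RNA was high in different cells of one lineage. Each is the 250 bases before the RefSeq start site, in GRCm38.p6 and on the gene's strand. For Akr1c18 this is chr13:4150647-4150896 on the minus strand, and for Hsd11b1 it is chr1:193242361-193242610 on the minus strand. The Hsd11b1 window lies inside the gene as annotated in GENCODE M21, which has 7 transcripts. Counts from 3′ ends do not show which start site was used in these cells. Capitals mark the only matches to CCAAT, the GC box GGGCGG, the C/EBP core TTGCNNAA or the AP-1 site TGANTCA on either strand. CCGCCC in Akr1c18 is the GC box read from the other strand.
Akr1c18: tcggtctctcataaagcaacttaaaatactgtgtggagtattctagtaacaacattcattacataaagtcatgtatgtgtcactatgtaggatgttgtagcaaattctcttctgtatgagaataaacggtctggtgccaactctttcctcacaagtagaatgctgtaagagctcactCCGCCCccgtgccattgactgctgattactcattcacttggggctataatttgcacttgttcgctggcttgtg
Hsd11b1: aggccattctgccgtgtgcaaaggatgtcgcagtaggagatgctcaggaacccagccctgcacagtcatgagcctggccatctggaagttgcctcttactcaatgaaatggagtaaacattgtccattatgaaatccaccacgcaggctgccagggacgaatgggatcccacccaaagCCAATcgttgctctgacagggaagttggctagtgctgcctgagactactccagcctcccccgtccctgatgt
Promoter entries were matched for 8 of the 9 enzymes. CCAAT was found in 6 of 8 and GGGCGG in 6 of 8, against 33.8% and 32.7% of 32851 promoters of the same length. TTGCNNAA was found in 1 of 8 (9.56% of all promoters) and TGANTCA in 0 of 8 (6.75%). The estrogen receptor half-site GGTCA (35.2% of all promoters), its palindromic full element (0.0639%), the progesterone and glucocorticoid receptor half-site TGTTCT (16.1%) and its palindromic full element (0.00913%) were searched on both strands, each full element containing its half-site, and none was found in the 8. TATAAA on the gene's strand was found in 0 of 8 and in 7.59% of all promoters. These matches describe letters in these windows only.

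In the GENCODE M21 annotation of GRCm38, Akr1c18 (chr13:4132615-4150654, minus strand) and Akr1c14 (chr13:4049011-4090688, plus strand) lie in the same cluster of aldo-keto reductase genes. Hsd11b1 lies at chr1:193221634-193264075 on the minus strand. An exon of Akr1c14 overlaps Gm18857 on the same strand and an exon of Srd5a1 overlaps Gm17108, so their reads may be shared with those models. The last 400 transcript bases of each enzyme, where a 3′ library reads, matched no other gene over at least 90 bases at 98% identity. The closest other gene for Akr1c18 was Akr1c20, at 86.3% identity over 95 bases.

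The libraries held between 19982067 and 42012988 UMIs (unique molecular identifiers, 1 per captured RNA molecule) in 2233 to 3536 barcodes, and the shallowest barcode held from 3374 UMIs in OVX to 5395 in OVX_E2. Of 14344 barcodes, 14317 passed the filters, and 80 barcode sequences occurred in more than 1 library. Clusters were named from marker genes, which gave 7253 fibroblast-like, 2536 luminal hormone-sensing-like (L-Hor-like), 1122 luminal alveolar-like (L-Alv-like), 422 basal-like, 532 hematopoietic-like and 234 vascular-like cells. A further 2196 barcodes with markers of both luminal lineages and 22 of other mixtures were set aside. The pooled levels of the defining markers followed the names: Col1a1 was at 1431 to 8294 CPM in the fibroblast subsets and 106 CPM in L-Hor-like cells, Krt14 at 1563 CPM in basal-like cells, Csn3 at 2305 CPM in L-Alv-like cells and Areg at 1731 CPM in L-Hor-like cells. CPM means UMIs of a gene per 1000000 UMIs of the class. Adipoq, which marks adipocytes, was at 0 in 8 of the 9 classes and at 0.1 CPM in the remaining one, so no class stood for the fat cells of the gland. The fibroblast-like cells fell into 4 subsets called after their marker genes, with 4404 Pi16-like, 1611 Col15a1-like, 801 Spon1-like and 437 Gdf10-like cells. Some sub-clusters are led by other genes, hemoglobin genes (Hba-a2, Hba-a1, Hbb-bs) in 1 Pi16-like and in the Gdf10-like sub-cluster and the lipid gene Fabp4 in 1 Col15a1-like sub-cluster, and a difference from the study's own cell types may come from these rebuilt names.

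Akr1c18, the progesterone-inactivating enzyme, was a transcript of the Pi16-like fibroblasts. Of its 9799 UMIs, 90.9% lay in Pi16-like fibroblasts, a class that held 19.2% of all UMIs, and 93.5% lay in fibroblast-like cells of any subset. Pooled over the 5 libraries its level was 320.3 CPM in Pi16-like fibroblasts, against 12.5 CPM in Col15a1-like, 20.4 CPM in Gdf10-like and 18.0 CPM in Spon1-like fibroblasts. It was 27.2 CPM in hematopoietic-like, 8.89 CPM in basal-like, 6.84 CPM in L-Hor-like, 5.71 CPM in L-Alv-like and 3.74 CPM in vascular-like cells. The Pi16-like fibroblasts were highest in 5 of 5 libraries and their range did not overlap that of any other class, while the ranges of the 8 other classes overlapped those of their neighbours in the order.

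In the Pi16-like fibroblasts, Akr1c18 was at 251 CPM in OVX (95% interval 240 to 262), 405 CPM in OVX_E2 (386 to 425), 324 CPM in OVX_E2_PBDE (313 to 335), 323 CPM in OVX_E2_P4 (303 to 344) and 376 CPM in OVX_E2_P4_PBDE (354 to 399). These exact Poisson intervals, like the exact intervals of shares and ratios given with other values, cover counting error only and say nothing of the spread between mice. OVX was the lowest library and OVX_E2 the highest, with those with PBDEs or P4 between. Within each library the level in Pi16-like fibroblasts was 12.3 to 52.8 times that in Col15a1-like, 10.1 to 57.7 times that in Gdf10-like, 7.02 to 80.2 times that in Spon1-like fibroblasts and 24.2 to 80.8 times that in L-Hor-like cells.

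**Figure D1:**
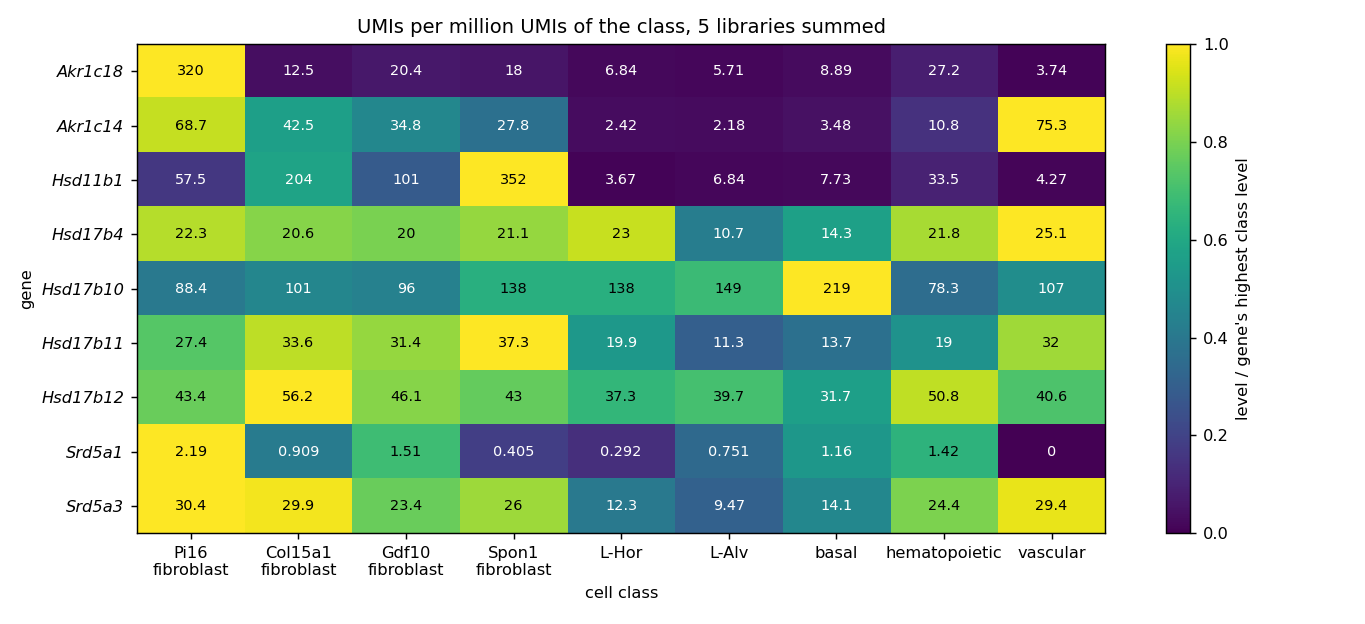
Heatmap of the pooled level of each of the 9 enzymes (rows) in 9 cell classes (columns, named without "-like"), in CPM as printed, with colour for the level relative to the gene's highest class. Akr1c18 stands out in the Pi16 fibroblasts at 320.3 CPM and Hsd11b1 in the Spon1 fibroblasts at 352 CPM, while Hsd17b10 is highest in basal cells at 219 CPM.

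Not every Pi16-like fibroblast yielded an Akr1c18 molecule. After each cell was thinned to 3000 UMIs, for which 0 cells were too shallow, Akr1c18 was seen in 38.5% of the Pi16-like fibroblasts of OVX (35.9 to 41.2), 50.7% of OVX_E2 (46.6 to 54.8), 46.3% of OVX_E2_PBDE (43.6 to 49.1), 48.7% of OVX_E2_P4 (44.3 to 53.2) and 49.2% of OVX_E2_P4_PBDE (45.3 to 53.2). The same measure gave 0.839% to 4.35% of L-Hor-like cells, which are epithelial and are shown for comparison. The part of free RNA in their share was not measured. Without thinning the shares were 50.8%, 67.9%, 64.6%, 62.8% and 56.9% of the Pi16-like fibroblasts in the same order, at median depths of 4239 to 7194 UMIs per cell, and 2.68% to 7.61% of L-Hor-like cells at median depths of 5540 to 10456 UMIs. The share was lowest in OVX on both scales, and single cells held up to 28 Akr1c18 UMIs in OVX and up to 16 in both P4 libraries.

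The low counts of Akr1c18 outside the fibroblasts were set beside RNA of the Pi16-like cells. For every 1000 UMIs of Pi16, a secreted-protein gene that names the subset, there were 71.8 Akr1c18 UMIs in Pi16-like fibroblasts (70.3 to 73.4), 55.8 in L-Hor-like (47.4 to 65.3), 63.2 in L-Alv-like, 83.2 in basal-like (60.2 to 112.5), 58.7 in hematopoietic-like and 27.6 in vascular-like cells (upper bound 57.6). The basal-like cells of OVX_E2 stood apart, with Akr1c18 at 27.4 CPM and 159.5 UMIs per 1000 of Pi16 (101.2 to 242.3), against 96.6 in the Pi16-like fibroblasts of that library (91.8 to 101.6). The ratio was lower in the other fibroblast subsets, at 34.2 in Col15a1-like, 28.3 in Gdf10-like and 30.2 in Spon1-like cells. In both luminal classes the pooled ratio was no higher than in the Pi16-like fibroblasts. The part of free RNA in their few CPM of Akr1c18 was not tested. These luminal counts were not taken to show expression or its absence. What gave the basal-like value of OVX_E2 was not tested.

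Against OVX, Akr1c18 in Pi16-like fibroblasts was 1.61 times as high in OVX_E2 (1.51 to 1.72). The subset is made of 4 sub-clusters (numbered 0, 2, 4 and 5) whose shares differ between libraries, with 486 of the 699 cells of sub-cluster 5 in OVX. Within them the OVX_E2 to OVX ratios were 3.01, 2.42, 1.15 and 1.67. The sub-clusters come from the same libraries and are not replicates. In sub-cluster 4 the intervals of the levels overlapped, at 269 CPM in OVX (241 to 299) and 309 CPM in OVX_E2 (268 to 356). In sub-cluster 0 the level went from 119 CPM in OVX to 358 CPM in OVX_E2, and in sub-cluster 5, where it was highest in every library, from 386 CPM to 644 CPM. Giving the 4 sub-clusters equal weight, a choice made after seeing the data, gave a ratio of 1.93.

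P4 and the PBDEs went with smaller differences. Their direction over the whole subset differed with the other treatment, but not in every sub-cluster. With P4 beside E2, the Akr1c18 level in Pi16-like fibroblasts was 0.80 times that with E2 alone (0.74 to 0.86). Among the PBDE-fed mice the same comparison gave 1.16 (1.08 to 1.25). The PBDEs gave 0.80 (0.75 to 0.85) without P4 and 1.17 (1.07 to 1.27) with it. Scaling changed 1 of these values, as median-of-ratios scaling moved all genes of OVX_E2_PBDE over OVX_E2 up by 0.18 on the log2 scale and brought that ratio to 0.91. By sub-cluster, which are not replicates, the OVX_E2_P4 to OVX_E2 ratios were 0.82, 0.86, 0.48 and 0.68. In sub-cluster 2 the intervals of the levels overlapped, at 461 CPM in OVX_E2 (421 to 503) and 397 CPM in OVX_E2_P4 (344 to 455). The OVX_E2_P4_PBDE to OVX_E2_PBDE ratios were 1.37, 1.02, 0.75 and 0.95, on both sides of 1, and equal weights gave 0.998. The PBDE ratios by sub-cluster were 0.93, 0.75, 0.68 and 0.94 without P4. With P4 they were 1.55, 0.89, 1.07 and 1.31, and only in sub-cluster 0 did the intervals of the 2 levels not overlap. Equal weights gave PBDE ratios of 0.819 without P4 and 1.18 with it.

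**Figure D2:**
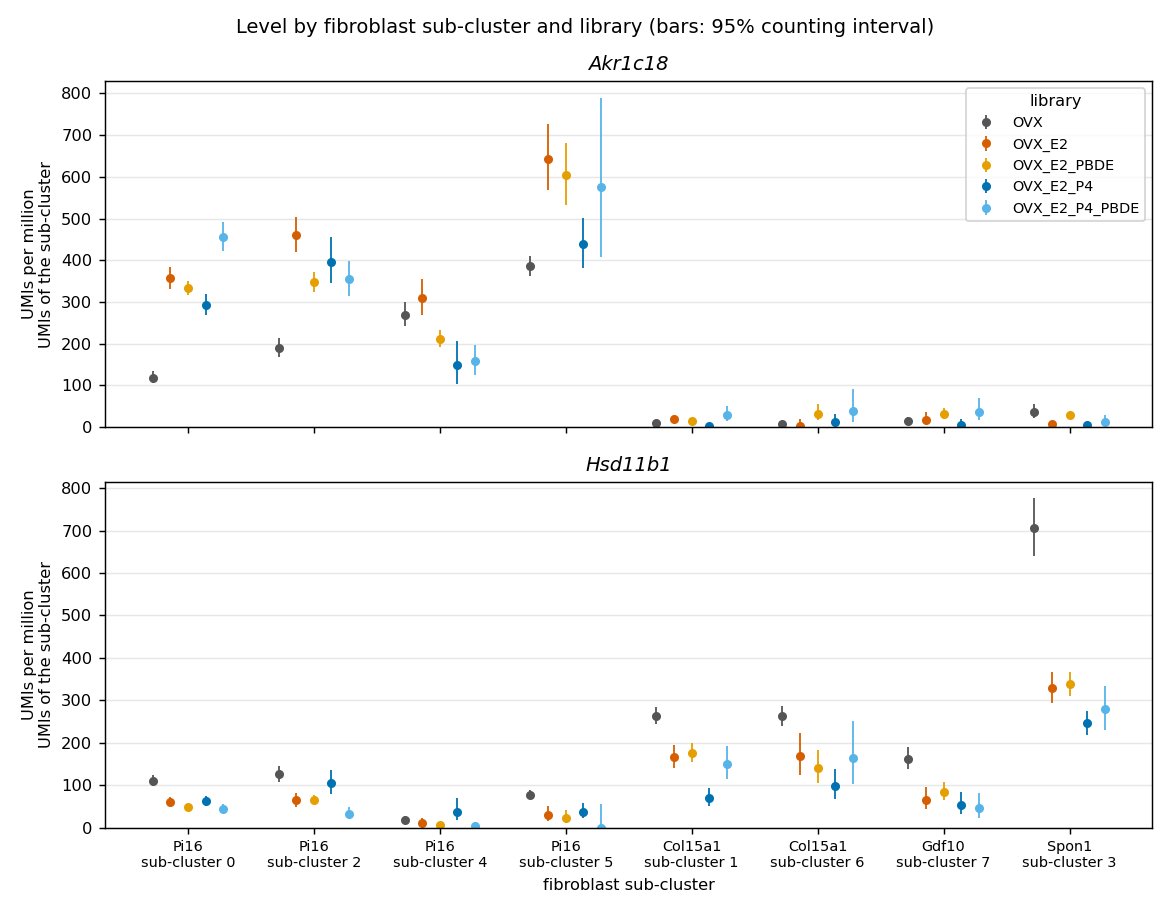
Levels of Akr1c18 and Hsd11b1 in CPM in each of the 8 fibroblast sub-clusters (horizontal axis), 1 point per library, with exact Poisson 95% intervals as bars. Akr1c18 is high in the 4 Pi16 sub-clusters, where OVX lies under OVX_E2 in each, with overlapping intervals in sub-cluster 4. Hsd11b1 is highest in the Spon1 sub-cluster, at 706 CPM in OVX.

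Hsd11b1, the glucocorticoid-regenerating enzyme, was also a fibroblast transcript, with 89.7% of its 6018 UMIs in fibroblast-like cells, but in other subsets. Spon1-like fibroblasts held 28.8% of its UMIs and 3.41% of all UMIs, Col15a1-like fibroblasts 29.8% and Pi16-like fibroblasts 26.6%. Its pooled level was 352 CPM in Spon1-like, 204 CPM in Col15a1-like, 101 CPM in Gdf10-like and 57.5 CPM in Pi16-like fibroblasts. It was 33.5 CPM in hematopoietic-like cells and 3.67 to 7.73 CPM in the epithelial and vascular-like classes. The Spon1-like cells, named from matrix and matricellular genes such as Tnc and Postn, were highest in 5 of 5 libraries, at 1.81 to 3.13 times the Col15a1-like level and 3.89 to 8.57 times the Pi16-like level. Across libraries, however, the ranges of neighbouring subsets in this order overlapped.

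**Figure D3:**
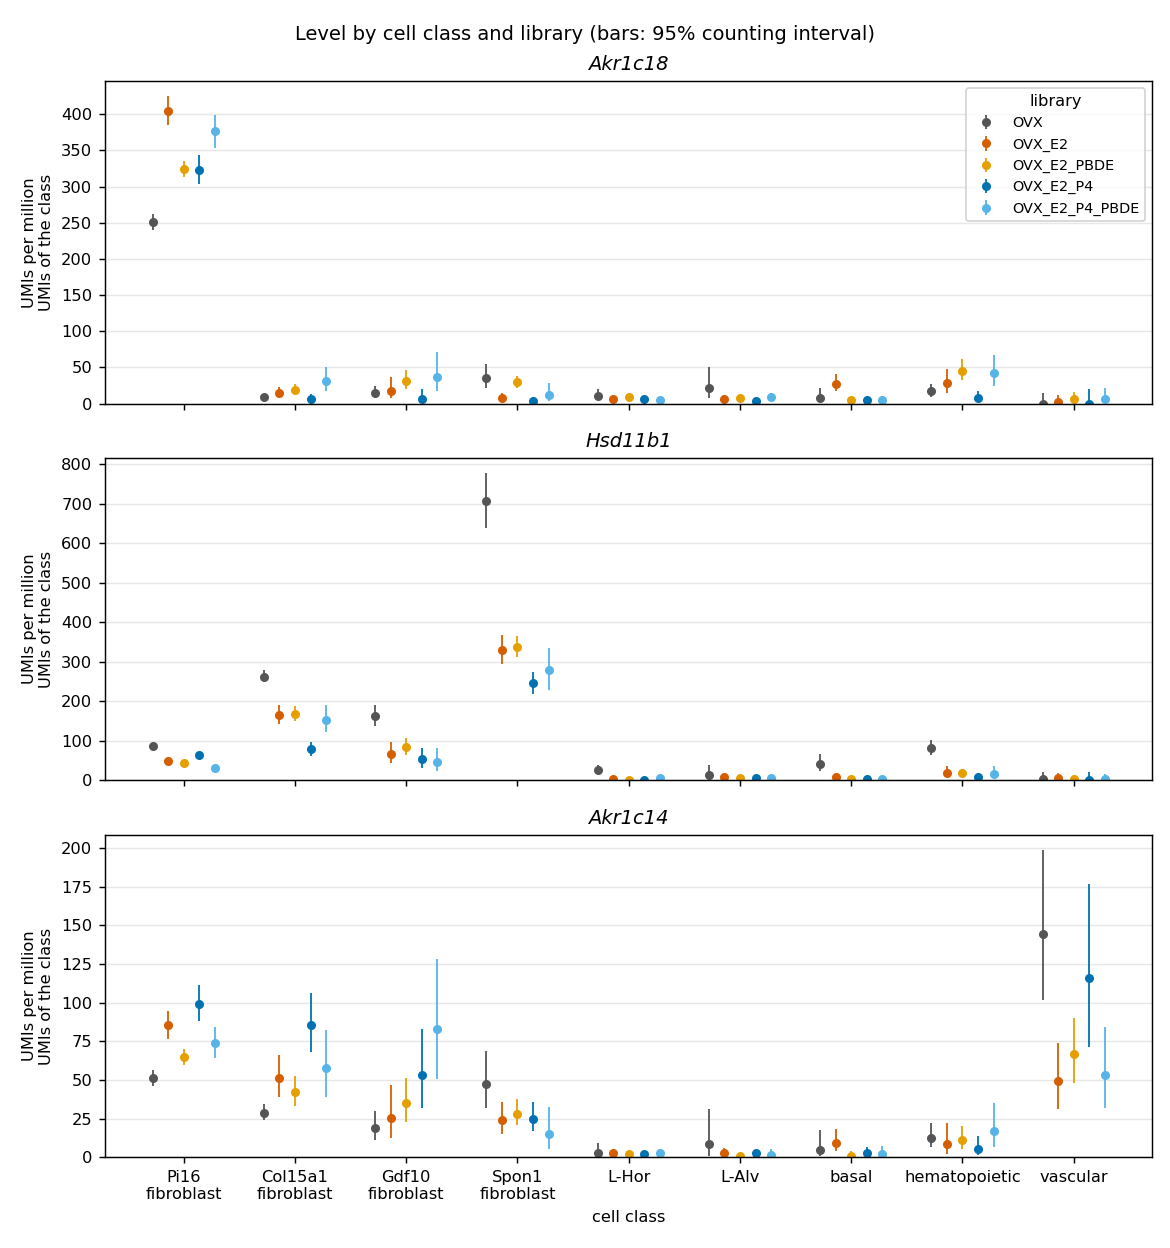
Levels of Akr1c18, Hsd11b1 and Akr1c14 in CPM by cell class (horizontal axis, named without "-like"), 1 point per library with exact Poisson 95% intervals as bars. Akr1c18 in the Pi16 fibroblasts lies between 251 and 405 CPM in the 5 libraries, apart from all other classes, and Hsd11b1 in the Spon1 fibroblasts lies between 246 and 706 CPM.

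The small counts of Hsd11b1 outside the fibroblasts did not keep one ratio to Col1a1, a general fibroblast transcript. Per 1000 UMIs of Col1a1 there were 44.6 Hsd11b1 UMIs in all fibroblast-like cells together (43.3 to 45.8) and 34.6 in L-Hor-like cells (27.7 to 42.9), but 73.2 in L-Alv-like (58.5 to 90.6), 72.1 in basal-like (50.9 to 99.4) and 69.5 in hematopoietic-like cells (57.2 to 83.8). Within OVX_E2_P4 the ratio was 82.3 in L-Alv-like cells (59.3 to 111.6) against 26.7 in fibroblast-like cells (24.6 to 29.0), and within OVX it was 269.8 in basal-like (148.0 to 466.9) and 135.1 in L-Hor-like cells (80.2 to 216.3) against 68.7 (65.9 to 71.6). The UMIs behind these epithelial ratios were few, 45 in the L-Alv-like, 17 in the basal-like and 20 in the L-Hor-like cells. The hematopoietic-like level was highest in OVX, at 81.3 CPM, where Col1a1 stood at 947 CPM in the same cells. What part of these counts is free fibroblast RNA was not tested.

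Hsd11b1 was lower with E2 than without it in all 4 fibroblast subsets. In Spon1-like fibroblasts it was at 706 CPM in OVX (639 to 777), 329 CPM in OVX_E2 (294 to 368), 338 CPM in OVX_E2_PBDE (311 to 366), 246 CPM in OVX_E2_P4 (219 to 275) and 278 CPM in OVX_E2_P4_PBDE (230 to 335). OVX stood above the 4 hormone-treated libraries, among which OVX_E2_P4 was the lowest. The OVX_E2 to OVX ratio was 0.47 in Spon1-like (0.40 to 0.54), 0.41 in Gdf10-like (0.26 to 0.62), 0.63 in Col15a1-like (0.54 to 0.74) and 0.58 in Pi16-like fibroblasts (0.49 to 0.68). In the 4 Pi16-like sub-clusters, which are not replicates, it was 0.54, 0.51, 0.58 and 0.38. The value of 0.58 rests on 7 UMIs in OVX_E2 and 24 in OVX, and that of 0.38 on 12 and 218. Outside the fibroblasts, OVX was also the highest library in hematopoietic-like (81.3 CPM), basal-like (41.9 CPM), L-Hor-like (25.9 CPM) and L-Alv-like cells (12.9 CPM, on 3 UMIs). The part of free RNA in these values was not tested. Spon1-like cells were 4.95% of the fibroblast-like cells in OVX and 9.93% to 21.3% in the other libraries, and no mouse-level spread is known for these shares. Other genes of the Spon1-like cells differed as well, with Col1a1 at 3412 CPM in OVX and 7871 to 10515 CPM in the other libraries. For OVX_E2 over OVX, 5.66% of all genes were at least 2-fold higher and 5.01% lower in this subset. What part of the Hsd11b1 ratio goes with a difference in the kind of Spon1-like cell was not tested.

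Seen by cell, 81.1% of the Spon1-like fibroblasts of OVX held an Hsd11b1 UMI after thinning to 3000 UMIs (73.2 to 87.5), against 55.6% for OVX_E2, 53.4% for OVX_E2_PBDE, 41.6% for OVX_E2_P4 and 45.5% for OVX_E2_P4_PBDE. Without thinning the shares were 88.2%, 72.2%, 72.5%, 60.4% and 59.1%. In L-Hor-like cells the thinned share was 0.526% to 6.52%. The order of OVX above the other libraries was the same in both, although the OVX cells were the shallowest of the 5 in this subset, with a median of 4099 UMIs per cell.

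With P4 beside E2, Hsd11b1 was lower still in the matrix-rich subsets of the mice on control food. The OVX_E2_P4 to OVX_E2 ratio was 0.75 in Spon1-like (0.64 to 0.88) and 0.47 in Col15a1-like fibroblasts (0.36 to 0.62), but 1.26 in Pi16-like fibroblasts (1.03 to 1.54). On PBDE food the ratios were 0.82 (0.67 to 1.01), 0.92 and 0.76 (0.60 to 0.95) in the same order. The OVX_E2_PBDE to OVX_E2 ratio in Spon1-like fibroblasts was 1.03 (0.89 to 1.18). Among the P4-treated mice, the PBDE ratio was 1.13 in Spon1-like (0.91 to 1.41), 1.96 in Col15a1-like (1.41 to 2.71) and 0.51 in Pi16-like fibroblasts (0.40 to 0.66), so no single direction held over the subsets.

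**Figure D4:**
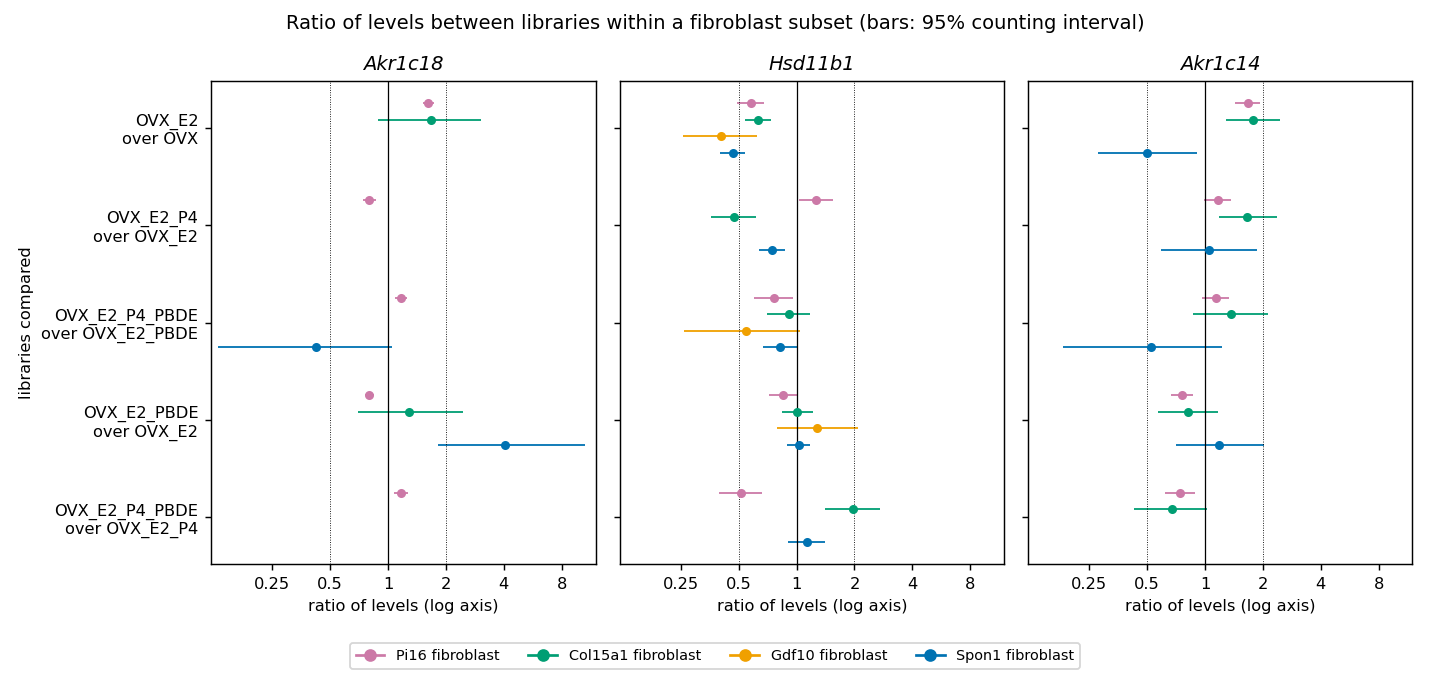
Ratios between 2 libraries of Akr1c18, Akr1c14 and Hsd11b1 in the fibroblast subsets with at least 50 UMIs over both libraries, on a log axis with dotted lines at 2-fold, with exact 95% intervals of counting error as bars and no replicate behind any point. For OVX_E2 over OVX, Hsd11b1 lies under 1 in all 4 subsets (0.41 to 0.63), while Akr1c18 (1.61) and Akr1c14 (1.67) lie above 1 in the Pi16 fibroblasts.

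Akr1c14, the 3-alpha-hydroxysteroid dehydrogenase that acts on 5-alpha-reduced steroids, was the third enzyme found mainly in stroma, with 86.1% of its 2921 UMIs in fibroblast-like cells. Its pooled level was 68.7 CPM in Pi16-like, 42.5 CPM in Col15a1-like, 34.8 CPM in Gdf10-like and 27.8 CPM in Spon1-like fibroblasts, and 75.3 CPM in vascular-like cells. The L-Hor-like, L-Alv-like and basal-like cells held 2.18 to 3.48 CPM. Neighbours in the order of levels overlapped in range, but the Spon1-like fibroblasts (14.8 to 47.6 CPM) lay under both the Pi16-like fibroblasts (51.2 to 99.2 CPM) and the vascular-like cells (49.3 to 144 CPM) in their range over the libraries. The highest class was the vascular-like cells in 3 of 5 libraries.

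The vascular signal of Akr1c14 was out of proportion to fibroblast RNA in those cells, at 434 Akr1c14 UMIs per 1000 Col1a1 UMIs (353 to 530), against 20.8 in all fibroblast-like cells and 22.8 in L-Hor-like cells. When the vascular-like cells were divided by their leading markers, a division made after seeing these values, the 183 endothelial-marker cells held 80.4 CPM (66.9 to 96.0) and the 45 pericyte-marker cells 48.7 CPM (27.3 to 80.4), intervals that overlap.

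In Pi16-like fibroblasts, Akr1c14 was at 51.2 CPM in OVX, 85.4 CPM in OVX_E2, 64.9 CPM in OVX_E2_PBDE, 99.2 CPM in OVX_E2_P4 and 73.8 CPM in OVX_E2_P4_PBDE. The OVX library was the lowest, and each PBDE library lay under the one with the same hormones. The OVX_E2 to OVX ratio was 1.67 (1.44 to 1.93) in Pi16-like and 1.79 (1.29 to 2.45) in Col15a1-like fibroblasts, but 0.50 (0.28 to 0.90) in Spon1-like fibroblasts, on 28 or fewer UMIs in each library. The PBDE ratio in Pi16-like fibroblasts was 0.76 without P4 (0.67 to 0.87) and 0.74 with it (0.62 to 0.89). The P4 ratio was 1.16 in Pi16-like (0.99 to 1.36) and 1.66 in Col15a1-like fibroblasts (1.18 to 2.36). Akr1c14 thus had a higher value with E2 in the same subset as Akr1c18, with sub-cluster ratios of 1.91, 2.16, 0.82 and 2.58.

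The enzymes with 17-beta-hydroxysteroid dehydrogenase names were found in every class. Hsd17b10, a mitochondrial enzyme of isoleucine and steroid oxidation that is also a subunit of mitochondrial RNase P, had the most UMIs of the 9 enzymes, 18710, of which 22.9% lay in fibroblast-like cells. It was highest in basal-like cells in 5 of 5 libraries, at 281 CPM in OVX, 228 CPM in OVX_E2, 194 CPM in OVX_E2_PBDE, 230 CPM in OVX_E2_P4 and 205 CPM in OVX_E2_P4_PBDE, a range above that of every other class. The basal-like level was 1.52 to 1.83 times the L-Hor-like level. The basal-like clusters of both PBDE libraries, which had the lowest basal-like levels of Hsd17b10, also carried more luminal marker RNA, with luminal scores of 0.321 in OVX_E2_PBDE and 0.376 in OVX_E2_P4_PBDE against 0.076 to 0.15 in the other 3 libraries. The part of luminal RNA in these levels was not tested. The lowest pooled levels of Hsd17b10 were 78.3 CPM in hematopoietic-like cells and 88.4 CPM in Pi16-like fibroblasts.

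Hsd17b4, the peroxisomal bifunctional enzyme of fatty acid beta-oxidation, spanned 10.7 CPM in L-Alv-like to 25.1 CPM in vascular-like cells, and all neighbours in its order overlapped. Hsd17b12, which reduces 3-ketoacyl-CoA in fatty acid elongation and can reduce estrone, spanned 31.7 CPM in basal-like to 56.2 CPM in Col15a1-like cells. Neighbours in its order overlapped, while its range in Col15a1-like fibroblasts (51.0 to 77.2 CPM) lay above those in Pi16-like fibroblasts (32.5 to 47.3 CPM) and basal-like cells (22.1 to 40.0 CPM). Hsd17b11, a lipid droplet enzyme, was at 27.4 to 37.3 CPM in the 4 fibroblast subsets, 19.9 CPM in L-Hor-like and 11.3 CPM in L-Alv-like cells, and only between the L-Hor-like and the basal-like cells did neighbouring ranges in its order not overlap. These 3 enzymes had UMIs in all 9 classes.

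The 2 genes with a 5-alpha-reductase name differed in level. Srd5a1, which reduces progesterone and testosterone, had 152 UMIs in all barcodes and 0 to 2.19 CPM in the pooled classes, too few to compare any 2 libraries at the minimum of 50 UMIs. Srd5a3, whose product reduces polyprenol for protein glycosylation, was at 23.4 to 30.4 CPM in the fibroblast subsets, 29.4 CPM in vascular-like and 12.3 CPM in L-Hor-like cells. Its Pi16-like level was 1.35 to 2.84 times the L-Hor-like level within a library, lowest in OVX.

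Over 45 points, each the cells of 1 class in 1 library with at least 20 cells, some enzymes rose and fell together across classes. Pearson's r of log2(CPM + 1) was 0.78 for Srd5a3 with Akr1c14 and 0.67 for Hsd17b11 with Akr1c14, and -0.56 for Hsd17b10 with Akr1c14. It was 0.32 for Akr1c14 with Akr1c18 and 0.43 for Hsd11b1 with Akr1c18. The points share libraries and classes, so these values describe the classes.

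Between libraries, few enzymes moved by 2-fold. Ratios were taken in 6 classes, the 4 fibroblast subsets, L-Hor-like and basal-like cells, where both libraries together held at least 50 UMIs, which gave 150 ratios of which 5 were past 2-fold, beside 3.39% of the ratios of all genes in the same classes and comparisons. The enzymes' share was thus near that of all genes. The L-Alv-like cells were not compared between libraries, since OVX held 32 of them and proliferation genes (Ube2c, Birc5, Top2a) led their cluster in OVX_E2_P4_PBDE. In Pi16-like fibroblasts 0 of 8 measured enzymes were past 2-fold for OVX_E2 over OVX, where 1.5% of all genes were at least 2-fold higher and 1.45% at least 2-fold lower. There were also 0 of 8 in the other 4 comparisons of that subset. There 0.741% of genes were higher and 1.2% lower for OVX_E2_P4 over OVX_E2, 1.32% and 0.822% for OVX_E2_P4_PBDE over OVX_E2_PBDE, 0.387% and 1.06% for OVX_E2_PBDE over OVX_E2, and 0.753% and 0.724% for OVX_E2_P4_PBDE over OVX_E2_P4. In L-Hor-like cells 0 of 5 were past it for OVX_E2 over OVX (2.55% of genes higher, 6.74% lower).

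For OVX_E2 over OVX, Hsd11b1 was the 1 lower enzyme of 3 measured in Gdf10-like fibroblasts, against 2.84% of genes, and the 1 lower enzyme of 5 in Spon1-like fibroblasts, against 5.01% of genes. For OVX_E2_P4 over OVX_E2 it was the 1 lower enzyme of 6 in Col15a1-like fibroblasts, against 1.32% of genes. Akr1c18 was the 1 higher enzyme of 8 in Spon1-like fibroblasts for OVX_E2_PBDE over OVX_E2, against 0.997% of genes, and the 1 lower enzyme of 7 for OVX_E2_P4_PBDE over OVX_E2_PBDE, against 2.16%. Both of these Akr1c18 ratios rest on under 60 UMIs: the 5 libraries held 21, 7, 51, 5 and 5 UMIs, 35.7, 7.27, 29.4, 4.03 and 12.3 CPM, and ratios of 4.04 (1.83 to 10.6) and 0.42 (0.13 to 1.04). When the subsets were found within each library, the second ratio was 1.58, on the other side of 1. Pi16 itself stood at 425 CPM in the Spon1-like cells of OVX_E2 and 726 CPM in those of OVX_E2_PBDE, and the part of Pi16-like RNA in the result was not tested.

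As a group, the enzymes are described by their medians. In Pi16-like fibroblasts the median log2 ratio of the 8 measured enzymes was 0.14 for OVX_E2 over OVX beside 0.01 for all genes, -0.18 beside -0.12 for OVX_E2_P4 over OVX_E2, and -0.29 beside -0.17 for OVX_E2_PBDE over OVX_E2. For OVX_E2 over OVX the median was also positive in Col15a1-like fibroblasts (0.38 beside 0.04, 8 enzymes). It was negative in Spon1-like (-0.61 beside 0.06, 5 enzymes) and Gdf10-like fibroblasts (-0.49 beside 0.01, 3 enzymes). The same held in L-Hor-like (-0.46 beside -0.24, 5 enzymes) and basal-like cells (-0.30 beside -0.07, 1 enzyme). No single direction thus held for the group. Among the enzymes with 17-beta-hydroxysteroid dehydrogenase names, Hsd17b10 was 1.69 times as high in OVX_E2 as in OVX in Col15a1-like (1.39 to 2.05) and 1.27 times in Pi16-like fibroblasts (1.11 to 1.44), and Hsd17b12 was 1.51 times as high in Col15a1-like fibroblasts (1.17 to 1.94). Hsd17b10 was also higher in OVX_E2 in Spon1-like fibroblasts (148 against 112 CPM). It was lower there in Gdf10-like (73.5 against 103 CPM), basal-like (228 against 281 CPM) and L-Hor-like cells (142 against 154 CPM).

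The other genes of steroid metabolism place these enzymes in their pathway. Of 41 listed genes 40 were counted, and 11 had 0 UMIs in all libraries: Hsd3b1, Hsd3b6, Cyp19a1 (aromatase, which makes estrogen), Cyp11b1, Hsd17b3, Hsd17b6, Akr1c20, Akr1c21, Akr1d1, Srd5a2 and Cyp1a1. Cyp11a1 (the side-chain cleavage enzyme that opens steroid synthesis) had 12 UMIs, Cyp17a1 4 and Cyp21a1 3. Genes with other work beside steroids were at higher levels, such as Fdx1 (ferredoxin, an electron carrier) at 185 CPM in L-Hor-like cells. Enzymes that consume or conjugate steroids had their own places: Sult2b1, a hydroxysteroid sulfotransferase, was at 17.6 CPM in L-Hor-like cells, Cyp7b1, an oxysterol 7-alpha-hydroxylase, at 37.4 CPM in Gdf10-like fibroblasts, and Sult1a1, a phenol sulfotransferase, at 74.2 CPM in vascular-like cells.

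H6pd, which supplies NADPH to Hsd11b1 in the endoplasmic reticulum, was at 34.5 CPM in Spon1-like, 24.2 CPM in Gdf10-like, 22.0 CPM in Col15a1-like and 9.5 CPM in Pi16-like fibroblasts, so both genes had their highest fibroblast level in the Spon1-like and their lowest in the Pi16-like subset. Hsd11b2, the opposing enzyme that inactivates glucocorticoid, was at 6.9 CPM in Spon1-like fibroblasts, on 34 UMIs in 5 libraries, and at 2.4 CPM or less in the other classes. For OVX_E2 over OVX, H6pd was 0.43 times as high in Col15a1-like fibroblasts (0.23 to 0.75), the 1 lower gene of the list's 11 measured there (3.19% of all genes were at least 2-fold lower). In Spon1-like fibroblasts H6pd was 0.34 times as high in OVX_E2_P4_PBDE as in OVX_E2_PBDE and 0.31 times as high as in OVX_E2_P4, on 5 UMIs in OVX_E2_P4_PBDE. It was the 1 lower gene of 7 measured in each of these, beside 2.16% and 2.21% of all genes. In L-Hor-like cells H6pd was likewise the 1 lower gene of 10 measured in each, beside 0.899% and 2.42% of all genes. The lower H6pd of OVX_E2_P4_PBDE was thus not particular to the Spon1-like cells.

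Over the same 6 classes and 5 comparisons, 212 ratios of the listed genes were measured, of which 1 was at least 2-fold higher and 10 at least 2-fold lower (3.39% of all genes' ratios were past 2-fold in either direction). In Pi16-like fibroblasts, 2 of 12 measured genes of the list were at least 2-fold lower in OVX_E2 than in OVX and none was higher. Of all genes there, 1.45% were lower and 1.5% higher by that measure. Sult1e1, the estrogen sulfotransferase that inactivates estradiol, had 121 UMIs in OVX and 8 in OVX_E2, 15.4 and 1.94 CPM, a ratio of 0.13 (0.05 to 0.26). It stood at 5.11 CPM in OVX_E2_PBDE, 1.32 CPM in OVX_E2_P4 and 0.71 CPM in OVX_E2_P4_PBDE, so that OVX was highest and OVX_E2_PBDE next. In Gdf10-like fibroblasts Sult1e1 had 57 UMIs in OVX (62.5 CPM) and 0 in OVX_E2, a ratio of at most 0.15 by the upper end of its interval. When subsets were found within OVX alone, 276 cells were named Gdf10-like, against 173 here. Sult1e1 was among the leading genes of those 276 cells. The part of such cells in the Pi16-like value of OVX was not tested. The OVX_E2_PBDE to OVX_E2 ratio of Sult1e1 in Pi16-like fibroblasts was 2.64 (1.24 to 6.43), the 1 higher gene of 13, beside 0.387% of all genes. OVX_E2_P4_PBDE over OVX_E2_PBDE gave 0.14, the 1 lower gene of 13, beside 0.822% of all genes. Cyp1b1, which hydroxylates estrogens, was at 18.1 CPM in OVX and 7.52 CPM in OVX_E2 in Pi16-like fibroblasts, a ratio of 0.42 (0.27 to 0.62), while its pooled level was highest in Gdf10-like fibroblasts, at 99.4 CPM.

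The receptors for the hormones these enzymes handle were spread differently. Pgr, the progesterone receptor, was at 135 CPM in L-Hor-like cells and 9.49 CPM in Pi16-like fibroblasts, the class with the most Akr1c18. Pi16-like fibroblasts held 3.27% of its 8064 UMIs and 19.2% of all UMIs, against 1.33% and 3.58% for basal-like cells. The part of free RNA in the low Pgr value of the Pi16-like fibroblasts was not tested. Nr3c1, the glucocorticoid receptor, was at 67.1 to 96.4 CPM in the fibroblast subsets, 12.9 CPM in L-Hor-like and 177 CPM in vascular-like cells.

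Among 11550 genes with at least 200 UMIs over the 45 points, those with levels most like Akr1c18 were Gpr1 (a chemerin receptor, r = 0.89), Pi16 (0.86), Nov (a matricellular protein, 0.85), Il18 (a cytokine, 0.84) and Sema3c (a semaphorin, 0.83). Gpr1 was at 44.5 CPM in Pi16-like fibroblasts and at 4.82 CPM or less in every other class. Il18 was at 138 CPM in Pi16-like and 18.2 CPM in Col15a1-like fibroblasts. Pi16 and Sema3c are markers that named the subset. The genes most like Hsd11b1 were Srpx (r = 0.96), Dpep1 (a membrane dipeptidase, 0.95), Mmp3 (stromelysin, 0.92), Lox (lysyl oxidase, which crosslinks collagen, 0.92) and Col1a1 (0.92), the last of them a marker that named the fibroblasts.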

How the data were processed

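Single-cell RNA of 5 libraries (10x Genomics 3′ version 2 chemistry) was aligned to mm10 and counted by the authors with Cell Ranger 2.0.0. The deposited values were filtered matrices of whole UMI counts, without normalization, and cell calling by the authors set the least UMIs per barcode.

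Barcodes with at least 500 genes, 1000 UMIs and at most 10% mitochondrial UMIs were kept. Each library was clustered with Seurat 5.3.0 in R 4.3.3 (scale 10000, 2000 variable genes without the genes reported, 10 components, 20 neighbours, resolution 0.3 for OVX and 0.5 for the others). Clusters with a relative marker score of at least 0.25 were named, and those at or above it for both luminal lineages were set aside as putative multiplets. Fibroblast-like cells of all libraries were scaled within library and divided with leidenalg 0.10.2 at resolution 0.5, and subsets were named at a score of at least 0.5. Scrublet in scanpy 1.11.5 served as an alternative for doublets (20% expected, the top 20% left out).

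UMIs were summed per class and library, divided by the class total and multiplied to CPM. Intervals (95%, scipy 1.17.1) were exact Poisson for levels, exact conditional for ratios and Clopper-Pearson for shares. They cover counting error only, and with 1 library per group no test was made. A ratio was counted at 2-fold or more (at most 0.5 when lower) where both libraries held at least 50 UMIs together. On Poisson counts simulated for OVX_E2 over OVX in Pi16-like fibroblasts, 95.8% of the intervals of 8930 unchanged genes held the true ratio. At simulated ratios of 0.5 and 2 it was 90% and 92%, with 50 genes each. Such counts meet the assumption of the intervals, so this checks the calculation only and not the spread in these libraries. Similar 3′ ends were sought with blastn 2.17.0. Sequences are from RefSeq.

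The members and gene lists were chosen with earlier results of these data known. Genes named are the 10 enzymes, genes of the steroid list with at least 50 UMIs in named cells, hormone receptors, and the 5 genes most like Akr1c18 and Hsd11b1. Synthesis enzymes under 50 UMIs and cluster-leading genes were added after their values were seen. Alternatives covered scaling, weight of a cell, thresholds, doublets, resolution, subset definition, thinning and likeness measure, and equal sub-cluster weights were added after seeing the data. These alternatives were run for the 9 enzymes only. The ratios of other genes, such as Sult1e1, Cyp1b1 and H6pd, have no such check. Sts and Hsd17b8 were not analysed here, and some listed genes are not reported here.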

Additional observations from a re-analysis of the deposited data

Results flagged for a closer look

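In Pi16-like fibroblasts the P4 ratio of Akr1c18 with PBDEs was 1.46 times that without (1.31 to 1.62), since the ratio lay under 1 on control food and above 1 on PBDE food. By sub-cluster the P4 ratios on PBDE food lay on both sides of 1, and equal sub-cluster weights gave 0.998 there. This difference was not tested, because each group is 1 library, and the interval covers counting error only. Over all fibroblast-like cells the same quotient was 1.69 (1.52 to 1.88), with a P4 ratio of 0.69 without and 1.17 with PBDEs. The Spon1-like and Col15a1-like shares of the fibroblasts also differ between those libraries, and their part in this value was not tested.

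For Hsd11b1 in Pi16-like fibroblasts the quotient was 0.603 (0.447 to 0.813), with P4 ratios of 1.26 without and 0.76 with PBDEs. In sub-clusters 0, 2, 4 and 5 the P4 ratios were 1.04, 1.62, 3.37 and 1.24 without PBDEs. With PBDEs they were 0.91, 0.50, 0.60 and 0. Those of sub-clusters 4 and 5 rest on 18 or fewer UMIs in each library. In Col15a1-like fibroblasts the quotient lay on the other side of 1, at 1.94 (1.35 to 2.79). These differences were likewise not tested.

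The barcodes set aside as putative luminal multiplets entered no comparison, and all 9 enzymes had UMIs in them. Hsd17b10 was at 144 CPM, Hsd17b12 at 37.8 CPM, Hsd17b11 at 19.1 CPM, Hsd17b4 at 14.7 CPM and Srd5a3 at 10.4 CPM. The fibroblast-centred enzymes stood at 4.38 CPM (Akr1c18), 5.17 CPM (Hsd11b1) and 2.09 CPM (Akr1c14), and Srd5a1 at 0.941 CPM. Clusters led by proliferation genes such as Birc5 and Ube2c were among these barcodes, with 130 in OVX_E2, 36 in OVX_E2_PBDE and 94 in OVX_E2_P4. The paper kept a cluster of proliferating luminal cells in OVX_E2 and did not remove it as doublets, so not all set-aside barcodes need be multiplets.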

How the results depend on the processing

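No paired analysis was possible because each group has 1 library. For the same reason no library could be left out. Of the 10 ratios of Akr1c18 in Pi16-like and Hsd11b1 in Spon1-like fibroblasts, 10 moved by less than their counting interval with the mean over cells or a mitochondrial threshold of 5%. The same held at a resolution of 1.0. That setting kept the subset labels and changed only which clusters counted as fibroblast-like, so it could hardly move these ratios.

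With all barcodes of a library in place of a class, Akr1c18 gave 0.597 (OVX_E2 over OVX), 0.547 (OVX_E2_P4 over OVX_E2), 0.728 (OVX_E2_P4_PBDE over OVX_E2_PBDE), 1.38 (OVX_E2_PBDE over OVX_E2) and 1.83 (OVX_E2_P4_PBDE over OVX_E2_P4), and Hsd11b1 gave 0.230 (OVX_E2 over OVX), 0.535 (OVX_E2_P4_PBDE over OVX_E2_PBDE), 1.24 (OVX_E2_PBDE over OVX_E2) and 0.881 (OVX_E2_P4_PBDE over OVX_E2_P4). That setting counts how many fibroblasts a library holds, and fewer cells and less RNA per cell cannot be told apart in it.

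With subsets found within each library, Akr1c18 was 1.44 for OVX_E2 over OVX, Hsd11b1 was 1.21 for OVX_E2_PBDE over OVX_E2, and Akr1c18 in Spon1-like fibroblasts turned to 1.58 for OVX_E2_P4_PBDE over OVX_E2_PBDE. That setting named no Gdf10-like subset in OVX_E2 and no Col15a1-like subset in OVX_E2_P4_PBDE. The ratios of those subsets that use these libraries therefore have no such check. It also left 113 fibroblast-like cells of OVX and 11 of OVX_E2_P4 unnamed. Equal sub-cluster weights gave 1.93, 0.693 and 0.998 for the first 3 Akr1c18 comparisons. For OVX_E2_PBDE over OVX_E2, Akr1c18 was 0.906 with median-of-ratios scaling and 0.857 without mitochondrial and ribosomal protein genes. Leaving out high Scrublet scores gave 0.399 for Hsd11b1 in OVX_E2 over OVX. The causes were not tested.

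The count of 5 ratios past 2-fold was 2 of 78 with at least 200 UMIs, 46 of 265 with at least 1 UMI and 31 of 150 at 1.5-fold. The shares of all genes were not computed at these settings, so these counts are not read as a result about the enzymes. Without thinning, the shares of cells with a UMI were 50.8%, 67.9%, 64.6%, 62.8% and 56.9% for Akr1c18 and 88.2%, 72.2%, 72.5%, 60.4% and 59.1% for Hsd11b1. With Spearman correlation 2 of the 5 genes most like Akr1c18 and 2 of the 5 most like Hsd11b1 were the same.

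At this depth, levels under a few CPM, such as Srd5a1, could not be compared between libraries.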
